A study of Mus musculus with 3 samples.

Results

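The genes described here are 9 that a mouse spleen needs to form or to organise its lymphoid tissue. There are 5 organ regulators, which are the transcription factor genes Tlx1, Nkx2-5, Nkx2-3, Nkx3-2 and Tcf21. The other 4 are products of the lymphoid stroma, namely the chemokine genes Cxcl13, Ccl19 and Ccl21a and the adhesion molecule gene Madcam1. They were chosen by name, and their probes were found by matching the RefSeq accession that the array gives for each probe to mouse gene symbols. Of the 9 genes, 8 had a probe, with 11 probes in all, among 20546 genes with a matched probe. No probe was matched to Ccl21a or to its near copies Ccl21b and Ccl21c, so the T-zone chemokine of that name was not analysed here.

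The arrays compared spleen and liver RNA of female mice, with 1 array for each of 3 groups. The first group was the spleen of mice given SiO2 and the treatment labelled 3TF-3C, taken on day 82, which the design text calls a hepatized spleen. The second was normal liver, the labels' positive control, whose pooling the labels do not give. The third was the spleen of mice given SiO2 alone, taken on day 82, which the design text names as the control. Each spleen array holds RNA pooled from 5 spleens. SiO2 was thus given to both spleen groups, so no untreated spleen enters these comparisons, and the labels spell out neither 3TF-3C nor the strain and age of the mice. One array per group leaves no replicate, so there is no test and no p-value here. A difference is described by its size, with 2-fold (1 on the log2 scale) as the mark, and with the technical error that the scanner software gives for the spots concerned. That error covers the measurement of a spot and not the spread between animals.

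In the mouse embryo the spleen arises from mesenchyme beside the stomach. Tlx1, Nkx2-5, Nkx3-2 and Tcf21 are needed there for the organ to form or to keep growing, and mice that lack Tlx1 have no spleen. Nkx2-3 acts in the spleen's stroma and vessels and is needed for normal Madcam1 expression. After birth, stromal cells that answer to lymphotoxin divide the white pulp into zones. Cxcl13 draws B cells, by the receptor Cxcr5, into follicles, and Ccl19 and Ccl21a draw T cells and dendritic cells by the receptor Ccr7. Madcam1 binds the integrin made of Itga4 and Itgb7 and in the spleen lies on cells that line the marginal sinus. Hepatocytes are not known for any of these genes.

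The promoters of 4 members are shown because they join both sides of the set: Tlx1 and Nkx3-2 as the regulators with the smallest and the largest difference between the spleens among the 5, Nkx2-3 as a regulator of Madcam1, and Madcam1 itself. Each line gives the 250 bases before the start of the gene from RefSeq (build GRCm38.p6), 5′ to 3′ on the gene's strand. Capitals mark matches to the NF-kB motif GGGNNNNNCC on either strand, with overlapping matches run together, since lymphotoxin signals through NF-kB.
Tlx1: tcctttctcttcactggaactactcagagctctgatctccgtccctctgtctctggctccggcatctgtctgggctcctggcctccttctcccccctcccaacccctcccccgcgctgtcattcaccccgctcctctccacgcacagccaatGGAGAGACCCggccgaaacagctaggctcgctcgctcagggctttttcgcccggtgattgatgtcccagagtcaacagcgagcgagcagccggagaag
Nkx3-2: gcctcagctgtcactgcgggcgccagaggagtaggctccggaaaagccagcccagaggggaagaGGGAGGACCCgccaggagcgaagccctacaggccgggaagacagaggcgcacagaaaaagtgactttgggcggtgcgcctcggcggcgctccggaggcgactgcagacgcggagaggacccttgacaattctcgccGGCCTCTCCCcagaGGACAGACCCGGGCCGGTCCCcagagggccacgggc
Nkx2-3: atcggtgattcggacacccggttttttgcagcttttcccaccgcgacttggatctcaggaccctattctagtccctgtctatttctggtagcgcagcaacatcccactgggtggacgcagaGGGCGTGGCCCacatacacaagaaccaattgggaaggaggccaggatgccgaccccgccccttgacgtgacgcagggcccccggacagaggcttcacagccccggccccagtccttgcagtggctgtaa
Madcam1: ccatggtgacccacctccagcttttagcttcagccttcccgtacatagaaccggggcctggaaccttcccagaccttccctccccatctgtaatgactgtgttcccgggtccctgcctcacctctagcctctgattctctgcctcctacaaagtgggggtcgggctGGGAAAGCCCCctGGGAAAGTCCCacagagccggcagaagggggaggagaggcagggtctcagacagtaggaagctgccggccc
These windows lie at chr19:45150465-45150714 on the plus strand for Tlx1, chr5:41764221-41764470 on the minus strand for Nkx3-2, chr19:43612075-43612324 on the plus strand for Nkx2-3 and chr10:79664309-79664558 on the plus strand for Madcam1. The Madcam1 window holds 4 matches, the Nkx3-2 window 5, the Nkx2-3 window 2 and the Tlx1 window 1. A match was present in 7 of the 9 member promoters, all but those of Nkx2-5 and Ccl21a, and in 45.8% of 32851 mouse promoters of that length. The fixed letters of this motif are all G or C. GC content was 68.8% for Nkx3-2, 62% for Tlx1, 61.2% for Madcam1, 60% for Nkx2-3 and 58.4% for Ccl19. It was 52.4% for Tcf21, 42% for Cxcl13, 52.8% for Ccl21a and 49.2% for Nkx2-5, and the median of all promoters was 52.4%. The 45.8% was not taken from promoters of like GC content, so enrichment was not tested. The motif TNAAGTG, bound by homeodomain proteins of the NK2 class, was in 0 of the 9 member windows and in 10.1% of all promoters, on either strand. A match is a run of letters and not a binding site, and no array value bears on binding.

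The tissue labels were set against marker genes. The 6 hepatocyte markers Alb, Apoa1, Ahsg, Ttr, Hnf4a and Cyp2e1 had summed intensities of 81735 on the SiO2-3TF-3C spleen array, 146480 on the liver array and 116 on the SiO2 spleen array. The 6 B-cell markers summed to 42334, 19297 and 64768 on those arrays in that order, and the 6 T-cell markers to 14959, 5483 and 24715. On the array labelled liver, Cd3g, a chain of the T-cell receptor complex, had an intensity of 364, and all 6 B-cell and all 6 T-cell markers exceeded background. Whether that array held RNA of liver alone cannot be told from the files, so each liver value of a member is a value of the array labelled liver. Hepatocyte genes were likewise measured on the array labelled SiO2-3TF-3C spleen. The part of either in the members' values was not tested. In whole tissue, fewer cells of a type and less RNA per cell cannot be told apart. The 75th percentile of intensity was 515 on the SiO2-3TF-3C spleen array, 390 on the liver array and 569 on the SiO2 spleen array, and 81.3%, 77.2% and 79.9% of spots were well above background there. All percentages and log2 differences between arrays are given after each array was divided by its own 75th percentile, whereas intensities are not scaled.

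All 8 measured members had a signal on the SiO2-3TF-3C spleen array. All 11 of their probes were flagged as well above background on all 3 arrays, liver included. By their brightest probe, 16087 of all 20546 genes with a matched probe were so too. Passing that flag was therefore common and not particular to the members. For all 8 members the probe that stands for the gene, the brightest one, was lowest in liver, between the others in the SiO2-3TF-3C spleen and highest in the SiO2 spleen. The step from the SiO2-3TF-3C spleen to the SiO2 spleen reached 2-fold for 1 member, Nkx3-2, and the step from liver to the SiO2-3TF-3C spleen reached it for 4. Of the 11 probes, 10 had this order, and the exception was the dimmer probe of Madcam1. Some steps were within the technical error: between the spleens those of Tlx1 (-0.14 ± 0.20) and Madcam1 (-0.09 ± 0.20). So was that of Nkx3-2 from liver (0.14 ± 0.31), which changed sign with normexp (-0.24). The share of all genes with this order is not given here, so the count is a description of the members only.

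**Figure D1:**
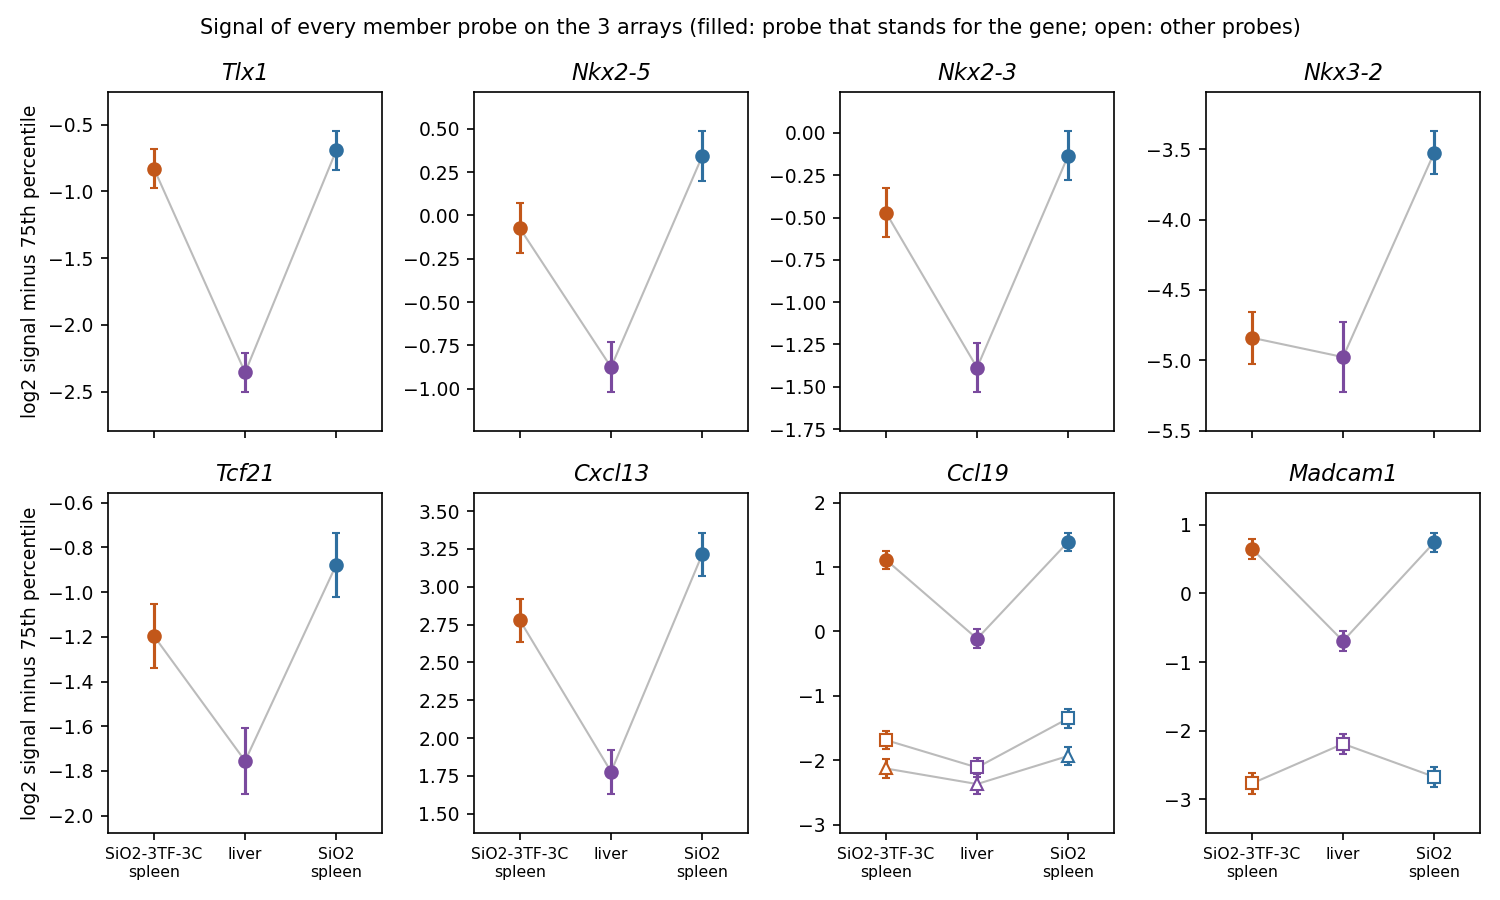
Scaled log2 signal (log2 intensity minus the array's 75th percentile, vertical axes with a range of their own in each panel) of the 11 probes of 8 members on the SiO2-3TF-3C spleen, liver and SiO2 spleen arrays; bars are the technical error of the spot, filled points the brightest probe and open points the other probes. Each filled point is lowest in liver and highest in the SiO2 spleen, while the dimmer Madcam1 probe is highest in liver.

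Tlx1, the homeobox gene without which no spleen forms, was nearly as bright in the treated spleen as in its control. Its intensity was 290 in the SiO2-3TF-3C spleen, 76.2 in liver and 351 in the SiO2 spleen. After scaling, the SiO2-3TF-3C spleen held 91.0% of the SiO2 spleen's level, a log2 difference of -0.14 ± 0.20 (technical error), which is within that error. Liver held 31.6% of the SiO2 spleen's level (-1.66 ± 0.21), a 3.16-fold lower value. The SiO2-3TF-3C spleen stood 2.88-fold above liver (1.53 ± 0.21). The liver value was still 41.1 times the median negative control spot of that array, so Tlx1 was not at background on the array labelled liver, which carried the lymphocyte markers too.

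Nkx2-5, a homeobox gene of the early heart that also acts in the spleen's mesenchyme, had an intensity of 489 in the SiO2-3TF-3C spleen, 212 in liver and 721 in the SiO2 spleen. Scaled, the SiO2-3TF-3C spleen held 74.9% of the SiO2 spleen's level (-0.42 ± 0.20), and liver 43.0% (-1.22 ± 0.20). The values of Nkx2-5 thus differed by less than 2-fold between the spleens and by more than 2-fold between liver and the SiO2 spleen. Of 6 heart muscle markers, 4 were well above background in the SiO2-3TF-3C spleen, 3 in liver and 5 in the SiO2 spleen, with summed intensities of 211, 213 and 247 in that order. Among them Tnni3 had 110 in the SiO2-3TF-3C spleen, 45.1 in liver and 139 in the SiO2 spleen. Myh6 went the other way in liver, with 27.6, 137 and 27.0 on those arrays in that order. Tnnt2 had log2 differences from the SiO2 spleen of 0.36 for the SiO2-3TF-3C spleen and -1.11 for liver. Actc1 exceeded background on none of the arrays. The part of heart muscle RNA in the Nkx2-5 values was not tested.

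Nkx2-3, its relative in gut and spleen stroma, had an intensity of 371.5 in the SiO2-3TF-3C spleen, 149 in liver and 518 in the SiO2 spleen. Scaled, the SiO2-3TF-3C spleen held 79.2% of the SiO2 spleen's level (-0.34 ± 0.20). Liver held 41.9% of it (-1.25 ± 0.20). The SiO2-3TF-3C spleen was 1.89-fold above liver (0.92 ± 0.20), short of the mark of 2-fold.

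Nkx3-2, also called Bapx1, which shapes the spleen and pancreas bud and the skeleton in the embryo, was the member that stood apart between the spleens. Its intensity was 18.0 in the SiO2-3TF-3C spleen, 12.4 in liver and 49.5 in the SiO2 spleen. Scaled, the SiO2-3TF-3C spleen was 2.49-fold below the SiO2 spleen (-1.32 ± 0.24). Against liver its difference was 0.14 ± 0.31, which is within the technical error. The Nkx3-2 signal was dim, at 11.5 times the median negative control in the SiO2-3TF-3C spleen, 6.67 times in liver and 25.5 times in the SiO2 spleen. Among all 17640 genes measured in this comparison, 86 genes (0.488%) lay below Nkx3-2. With another background correction (normexp) its difference between the spleens was -0.43, so the 2-fold mark was not met, and its difference from liver changed sign to -0.24. The difference of liver from the SiO2 spleen, -1.45 ± 0.29 as reported, was -0.20 with normexp and so lost the mark too.

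Tcf21, a basic helix-loop-helix gene of visceral mesenchyme that spleen formation requires, had an intensity of 225 in the SiO2-3TF-3C spleen, 115 in liver and 310 in the SiO2 spleen. Scaled, the SiO2-3TF-3C spleen held 80.2% of the SiO2 spleen's level (-0.32 ± 0.20). Liver held 54.4% (-0.88 ± 0.21), which made Tcf21 the 1 member of the 8 that was not 2-fold lower in liver. The podocyte marker Nphs1 is named because Tcf21 also acts in kidney, and it had an intensity of 24.2 in the SiO2-3TF-3C spleen, 13.8 in liver and 24.4 in the SiO2 spleen.

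Cxcl13, the B-cell chemokine of follicular stroma, had an intensity of 3529 in the SiO2-3TF-3C spleen, 1336 in liver and 5277 in the SiO2 spleen. Scaled, the SiO2-3TF-3C spleen held 73.9% of the SiO2 spleen's level (-0.44 ± 0.20), and liver 36.9% (-1.44 ± 0.20). Between the SiO2-3TF-3C spleen and liver the log2 difference was 1.0002 ± 0.20, so this member lies on the mark of 2-fold and the count of members past 2-fold in that comparison turns on it.

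Ccl19, the T-zone chemokine, had 3 probes. The brightest had an intensity of 1113 in the SiO2-3TF-3C spleen, 361 in liver and 1493 in the SiO2 spleen, which put the SiO2-3TF-3C spleen at 82.4% (-0.28 ± 0.20) and liver at 35.2% (-1.50 ± 0.20) of the SiO2 spleen. The second had 160 in the SiO2-3TF-3C spleen, 90.1 in liver and 223 in the SiO2 spleen, and the third 118, 75.4 and 149 in that order. All 3 probes had the same order of arrays, but the dimmer probes spanned less: their log2 differences of liver from the SiO2 spleen were -0.76 and -0.44, neither of them 2-fold.

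Madcam1 had 2 probes that disagreed in liver. The brighter had an intensity of 810 in the SiO2-3TF-3C spleen, 241 in liver and 952 in the SiO2 spleen, with the SiO2-3TF-3C spleen at 93.9% (-0.09 ± 0.20) and liver at 36.9% (-1.44 ± 0.20) of the SiO2 spleen. The dimmer had 75.5 in the SiO2-3TF-3C spleen, 85.4 in liver and 89.2 in the SiO2 spleen. For this dimmer probe the difference between the spleens was -0.10 ± 0.21, as for the brighter, but after scaling liver was above the SiO2 spleen by 0.48 ± 0.21. The direction of Madcam1 in liver therefore rests on its brighter probe, and that between the spleens was within the technical error for both probes.

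Between the SiO2-3TF-3C spleen and the SiO2 spleen, 0 of the 8 members were at least 2-fold higher and 1, Nkx3-2, was at least 2-fold lower, while 5.24% of all 17640 genes measured were past 2-fold higher and 1.39% past 2-fold lower. Among the 1805 genes within 0.5 log2 of Nkx3-2's mean level, 2.71% were past 2-fold lower. The members' median log2 difference was -0.33, against -0.15 over all genes. All 8 differences were below 0, from -1.32 to -0.09, on the same side as the median of all genes. Tlx1 and Madcam1 lay above that median, with 51.7% and 56.4% of genes below them. Each other member lay below it, with 35.2% of genes or fewer below the member. The 5 organ regulators had a median of -0.34, and the 3 stromal genes a median of -0.28.

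Between liver and the SiO2 spleen, 0 of the 8 members were 2-fold higher and 7 were 2-fold lower, Tcf21 being the exception. With normexp 6 were, since Nkx3-2 lost the mark, and with all probes averaged 5 were, since Ccl19 and Madcam1 did. Of all 17359 genes measured, 15.4% were past 2-fold higher and 17.0% past 2-fold lower. The members' median was -1.44, against -0.14 over all genes. Among the 1804 genes near Nkx3-2's level, 12.6% were past 2-fold lower. The 7 lower members lay at 31.6% to 43.0% of the SiO2 spleen's level, and all 7 stayed well above background in liver. The organ regulators had a median of -1.25, and the stromal genes -1.44.

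Between the SiO2-3TF-3C spleen and liver, 4 of the 8 members were at least 2-fold higher, namely Tlx1, Cxcl13, Ccl19 and Madcam1, and 0 were 2-fold lower. Tlx1 missed the mark with normexp (0.97), Ccl19 in the deposited table (0.43) and with all probes averaged (0.63), and Madcam1 with all probes averaged (0.38). Of all 17213 genes measured, 10.7% were past 2-fold higher and 15.9% past 2-fold lower, the second share being 13.6% among the 1804 genes near Nkx3-2's level. The members' median was 0.96, against -0.03 over all genes. The 3 comparisons share their arrays in pairs, so they are not independent readings of a member.

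**Figure D2:**
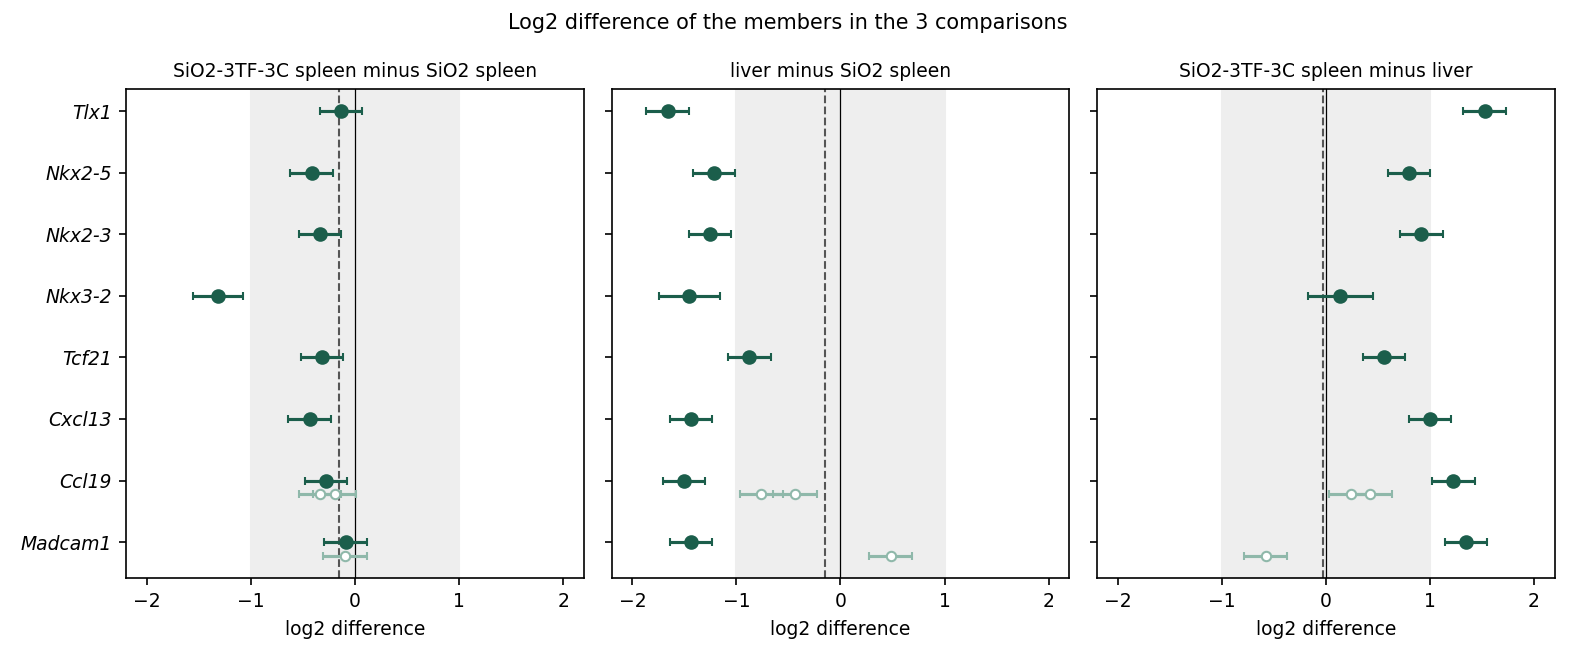
Log2 difference of each member in the 3 comparisons, with filled points for the brightest probe, open points for other probes and bars for the technical error; the grey band spans less than 2-fold and the dashed line is the median of all genes. Nkx3-2 alone leaves the band between the spleens at -1.32, while 7 of 8 members leave it in liver against the SiO2 spleen.

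Other genes that pattern the spleen mostly had values nearer to 0 in liver. Of the 6 listed, Isl1 was not well above background on any array, and of the other 5, 0 passed 2-fold between the spleens and 1 in liver against the SiO2 spleen. The one was Wt1, a zinc-finger gene of mesothelium and splenic mesenchyme, at 660 in the SiO2-3TF-3C spleen, 229 in liver and 1049 in the SiO2 spleen, with differences from the SiO2 spleen of -0.53 for the SiO2-3TF-3C spleen and -1.65 for liver. Nr2f2, Bmp4 and Barx1 had differences between the spleens of -0.33, -0.37 and -0.49 and differences of liver from the SiO2 spleen of -0.20, -0.20 and 0.31. The medians of the 5 were -0.49 between the spleens and -0.20 in liver against the SiO2 spleen, and the second was 0.13 when all probes of a gene were averaged.

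The nearest relatives of the homeobox members were mostly near background. Of the 12 other NK and Tlx family genes listed, 7 were well above background in the SiO2-3TF-3C spleen, 6 in liver and 7 in the SiO2 spleen, 5 were so on all 3 arrays, and 4 on none. The highest intensity among them was 27.9 in the SiO2-3TF-3C spleen, 34.4 in liver and 52.0 in the SiO2 spleen, each time that of Nkx1-2. None of those measured passed 2-fold in any of the 3 comparisons, while with no filter on dim genes 1 did in each comparison with liver. Nkx1-2 had a difference between the spleens of -0.75 and Nkx2-2 one of 0.20.

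The receptors that read the stromal members were also low in liver. Of 6 listed, 0 passed 2-fold between the spleens, with a median of -0.53. In liver against the SiO2 spleen 5 were 2-fold lower, and the median was -1.41. Cxcr5, the receptor for Cxcl13, had 3738 in the SiO2-3TF-3C spleen, 1363 in liver and 6425 in the SiO2 spleen. Ccr7, the receptor for Ccl19 and Ccl21a, had 4338, 1886 and 7826 in that order. Itga4 and Itgb7, the chains of the Madcam1 receptor, had differences between the spleens of -0.33 and -0.43 and differences of liver from the SiO2 spleen of -1.31 and -1.24. Ackr4, a scavenging receptor for Ccl19 and Ccl21a that non-lymphoid cells carry, had -0.06 ± 0.27 between the spleens and 0.41 ± 0.28 in liver against the SiO2 spleen. It was dim, with an intensity of 17.3 in the SiO2-3TF-3C spleen, 18.1 in liver and 19.9 in the SiO2 spleen.

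Lymphotoxin and its relatives drive Cxcl13, Ccl19 and Madcam1 in the mouse spleen. Of 16 genes of that pathway, 0 passed 2-fold between the spleens, with a median of -0.30. In liver against the SiO2 spleen 9 were 2-fold lower, and the median was -1.10. With normexp 7 were, and the median was -0.86. Ltb, the membrane-bound lymphotoxin chain of lymphocytes, had 12587 in the SiO2-3TF-3C spleen, 4071 in liver and 22057 in the SiO2 spleen, with differences from the SiO2 spleen of -0.67 and -1.89. Lta, its partner, had -0.43 and -1.69. Tnfsf11, the RANK ligand, had -0.28 and -1.96, and Tnfsf13b, the B-cell survival factor BAFF, had 0.27 and -1.49. Ltbr, the receptor, was named after its values were seen: it had 4260 in the SiO2-3TF-3C spleen, 6975 in liver and 5448 in the SiO2 spleen. Its difference from the SiO2 spleen was -0.21 for the SiO2-3TF-3C spleen and 0.90 for liver, so Lta and Ltb on the one hand and Ltbr on the other lay on opposite sides of 0 in liver.

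Other genes of reticular and follicular dendritic cells were also read. Of 18 listed, 0 passed 2-fold between the spleens, with a median of -0.14. In liver against the SiO2 spleen 8 were 2-fold lower, and the median was -0.92. With normexp 7 were, and the median was -0.54. Cr2, the complement receptor of follicular dendritic cells and B cells, had 6064 in the SiO2-3TF-3C spleen, 2361 in liver and 12892 in the SiO2 spleen, and its difference between the spleens of -0.94 lay close to the mark. Il33, an alarmin of reticular cells, had 1567 in the SiO2-3TF-3C spleen, 376 in liver and 1504 in the SiO2 spleen, with differences from the SiO2 spleen of 0.20 for the SiO2-3TF-3C spleen and -1.46 for liver. Bst1, a marker of marrow and lymphoid stroma, had -0.34 between the spleens and -1.53 in liver against the SiO2 spleen. Grem1, a BMP antagonist of reticular cells, had -0.22 and -1.47.

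The lymphocyte markers lay on the same side of 0. The 6 B-cell markers had a median of -0.51 between the spleens and -1.18 in liver against the SiO2 spleen, and the 6 T-cell markers medians of -0.51 and -1.62. Of these, 0 passed 2-fold between the spleens, and 4 B-cell and 5 T-cell markers were 2-fold lower in liver. With normexp 3 B-cell and 5 T-cell markers were. Set beside them, the members had medians of -0.33 and -1.44. Glycam1, the secreted product of lymph node venules, was not well above background on any array, at 4.21 in the SiO2-3TF-3C spleen, 2.30 in liver and 8.73 in the SiO2 spleen.

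**Figure D3:**
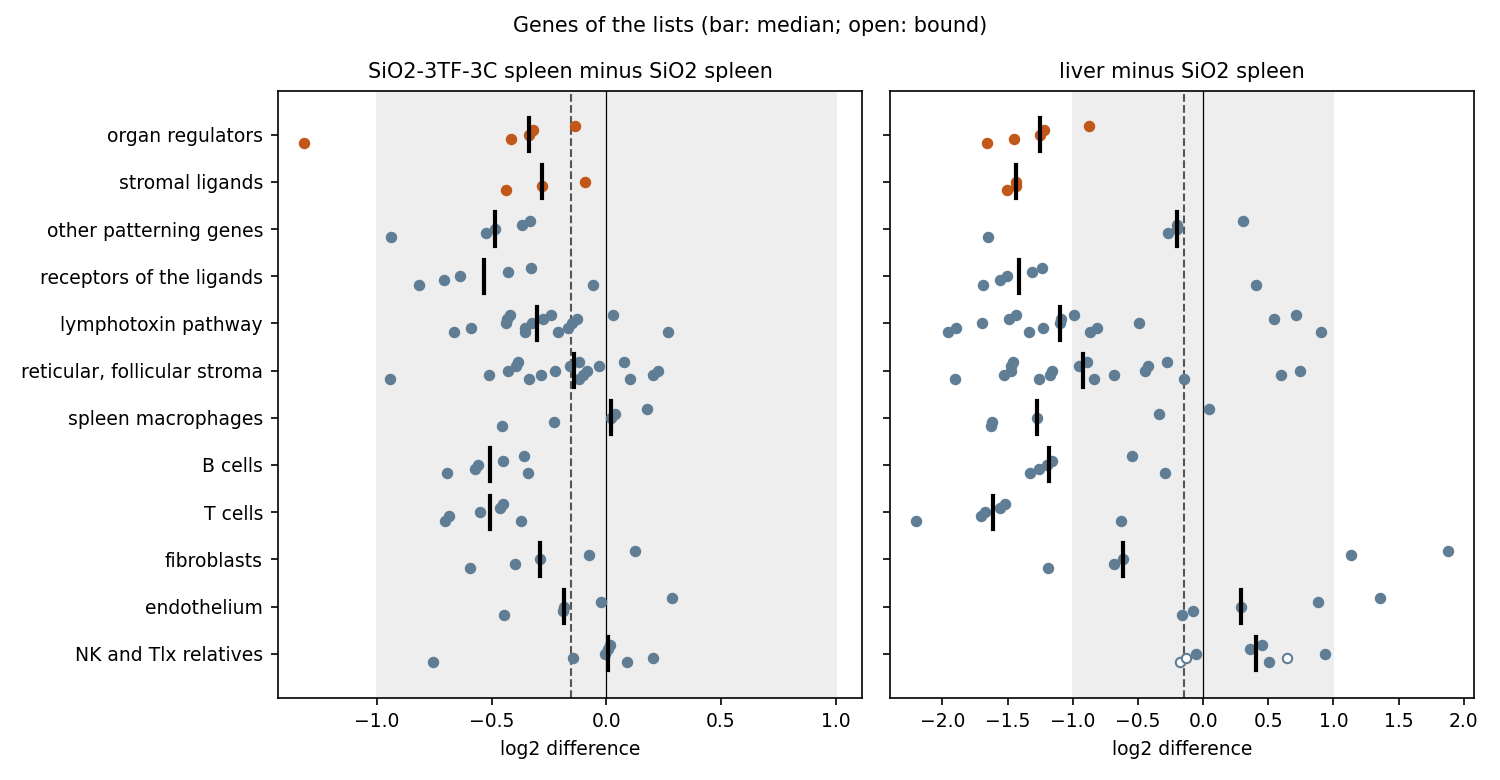
Log2 difference of every measured gene of 12 lists in the SiO2-3TF-3C spleen minus SiO2 spleen (left) and liver minus SiO2 spleen (right) comparisons, with members in orange, black bars for list medians, open points for bounds, a grey band under 2-fold and a dashed line at the median of all genes. In the left panel Nkx3-2 alone lies outside the band; in the right one the members, receptors and lymphocyte lists lie mostly below -1.

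For each member, the genes whose values over the 3 arrays, centred on their own mean, lay nearest were looked up among 15262 named genes well above background on all 3 arrays. Nearest to Tlx1 were Nrg2 and Abcb1b, and nearest to Nkx3-2 were Kcnj9 at a distance of 0.083 and Cass4 at 0.12. Nearest to Nkx2-5 were Rab7b and Tmem131l, to Nkx2-3 Traf5 and Nup93, and to Tcf21 Itpr1 and Zfp715. Nearest to Cxcl13 were Arrdc1 and Zfp52, to Ccl19 Hs6st2 and Tspan13, and to Madcam1 Mcf2l and Gdpd1. Within a distance of 0.1 log2 lay 1 gene for Nkx3-2, 51 for Tlx1 and up to 401 for Tcf21, so fewest genes lay near Nkx3-2 among the 8. With 3 arrays, nearness is a description of 3 values.

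How far these values depend on processing differed between members. Over 9 other processings, Tlx1 kept a difference between the spleens of -0.19 to -0.12 and one of liver from the SiO2 spleen of -1.72 to -1.16. Cxcl13 was 2-fold lower in liver in all 9, with values of -1.56 to -1.44. Nkx3-2 ranged from -1.32 to -0.43 between the spleens, past 2-fold in 8 of 9. Since all members exceeded background on every array, settings that changed only the filter on dim genes could not move a member. Averaging all probes could likewise move only Ccl19 and Madcam1. These settings are still counted among the 9. Ccl19 and Madcam1 were past 2-fold lower in liver in 7 and 8 of 9, and their smallest values were -0.80 and -0.48.

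**Figure D4:**
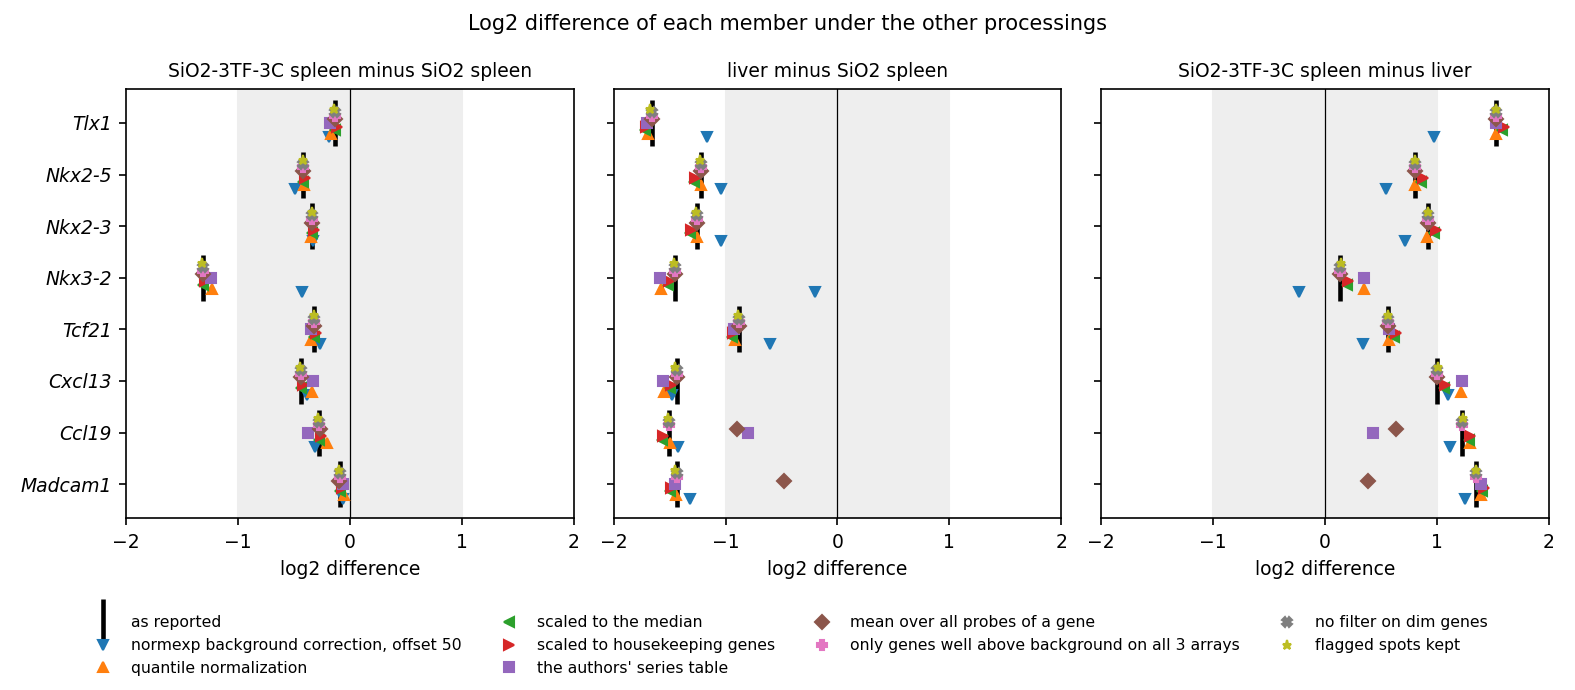
Log2 difference of each of the 8 members in the 3 comparisons as reported (black bar) and under 9 other processings (coloured symbols, named in the legend), with a grey band under 2-fold. Most symbols lie on the bar; the widest spreads are those of Nkx3-2 under normexp, of Ccl19 in the deposited table and of Madcam1 when all probes are averaged.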

How the data were processed

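Each deposited scanner file holds 1 array's linear intensity after the scanner software's background subtraction (Agilent array design 026655, build mm9, 1 colour, Feature Extraction 11.0.1.1, per the file headers), while Agilent Feature Extraction 9.1 stands in the submitters' processing notes. The flags for spots well above background are the scanner software's own, per the file headers. The authors' deposited series table is on a log2 scale, found by setting it against the arrays (r from 0.993 to 0.996), lists 26049 probes with a median of 5.91 in each column, and how it was scaled is not stated in those sources. It served as an alternative only. Per the labels' protocols, total RNA was purified with a kit made for blood, depleted of globin RNA and labelled with Cy3. The file headers give each of the 3 arrays a slide position of its own.

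Control spots were dropped, as were spots that the scanner software marks as population outliers or non-uniform (283 in the SiO2-3TF-3C spleen, 469 in liver and 182 in the SiO2 spleen, of 43020). Spots of a probe were averaged, 39112 probes with a value on all 3 arrays were kept, and each array's 75th percentile was subtracted on the log2 scale with no pseudocount. Symbols came from RefSeq accessions for 27038 probes, through a GRCm38.p6 table used for names only. The brightest probe over the 3 arrays stood for a gene, and other probes were given beside it. A gene measured on 1 side only has a bound. A technical error combines the 2 spots' signal errors from the scanner software. There was 1 array a group, and its number limits the precision. Steps were tested on simulated data. Python 3.11.15 and, for normexp and quantile normalization, limma 3.58.1 in R 4.3.3 were used. Because the scanner files used here hold no mean signal column, normexp (offset 50) took the median signal. The unit of the alternative, as of the main values, is log2. The members and gene lists were chosen with earlier results of these data known. Genes named outside the members were all those of lists of 6 or fewer, up to 4 with the largest difference in longer lists, and the 2 nearest genes of each member. Some genes that this rule names are not reported here.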

Additional observations from a re-analysis of the deposited data

How the results depend on the processing

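No paired analysis was possible because each group has 1 array, and for the same reason no array could be left out. Of 210 single member values under 9 alternatives, 193 moved by less than the spread taken from the technical error, 17 moved by more and 0 of those past 2-fold changed sign. The 193 include values under changes of the filter on dim genes, which could not move a member. Of 81 counts and medians, 5 were scored as moved, but the other 76 were not all unchanged. The count of members 2-fold lower in liver against the SiO2 spleen went from 7 to 6 with normexp. With all probes averaged it went to 5. The count for the SiO2-3TF-3C spleen against liver went from 4 to 3 with normexp. None of these 3 changes was scored as a move. With normexp, 0 members were 2-fold lower between the spleens, and the median of liver against the SiO2 spleen was -1.10. In the authors' deposited series table, 4 of the 6 members it lists were 2-fold lower in liver against the SiO2 spleen. Of the same 6, 5 were so as reported, and Ccl19, for which that table lists a dimmer probe, had -0.80 there. With the mean over all probes, the median of the SiO2-3TF-3C spleen against liver was 0.72, and 2 members were 2-fold higher. The cause was not tested where the set of members stayed the same. Over all genes, 245 were 2-fold lower in the SiO2-3TF-3C spleen against the SiO2 spleen, compared with 40 with normexp, 555 with no filter on dim genes, 161 when every array had to exceed background and 156 in the deposited table, and those 2-fold higher numbered 924, against 592 with normexp. In liver against the SiO2 spleen 2946 genes were 2-fold lower, compared with 1633 with normexp. In the SiO2-3TF-3C spleen against liver 1848 were 2-fold higher, compared with 861. In the deposited table, which lists fewer genes, 1774 were 2-fold higher in liver against the SiO2 spleen, compared with 2670, and 1702 were 2-fold lower in the SiO2-3TF-3C spleen against liver, compared with 2729. The median of all genes shifted by 0.22 (liver against the SiO2 spleen) and -0.14 (SiO2-3TF-3C spleen against liver) with normexp, and in the second by 0.12 with quantile normalization and 0.14 in the deposited table. Signal over background limits Nkx3-2, at 6.67 times the median negative control in liver.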

Other observations

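Macrophages of the spleen's red pulp and marginal zone had 2-fold lower genes in liver and none between the spleens. Spic, the transcription factor of red pulp macrophages, had an intensity of 2375 in the SiO2-3TF-3C spleen, 798 in liver and 3591 in the SiO2 spleen. Marco, a scavenger receptor of marginal zone macrophages, had 6825, 2497 and 8832 on those arrays in that order, and Cd209b, a lectin of the same cells, 98.5, 23.9 and 107. The 5 genes listed had a median log2 difference of 0.02 between the spleens. Of them 3, or 2 with normexp, were 2-fold lower in liver against the SiO2 spleen. Siglec1 and Treml4 had differences of 0.05 and -0.34 there.

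Stromal genes of other kinds were mixed in liver. Dcn and Lum, matrix proteoglycans of fibroblasts, had log2 differences of 1.88 and 1.14 in liver against the SiO2 spleen, while the collagen genes Col1a1, Col1a2 and Col3a1 had -0.68, -1.19 and -0.61. Between the spleens the 5 fibroblast genes had values of -0.59 to 0.13. Of 6 hepatic stellate cell genes, 5 were 2-fold higher in liver against the SiO2 spleen. Between the spleens 1, Colec11, was 2-fold higher (2.79). The 5 endothelial genes had medians of -0.18 between the spleens and 0.29 in liver against the SiO2 spleen.

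Among marker lists of neighbouring organs, the 5 mesothelial genes were well above background for 3 in the SiO2-3TF-3C spleen, 5 in liver and 2 in the SiO2 spleen. Of these, Msln had 128 in the SiO2-3TF-3C spleen, 78.3 in liver and 19.5 in the SiO2 spleen, whereas Wt1 had a difference between the spleens of -0.53, and Upk3b and Lrrn4 were well above background in liver alone. Myh6, a heart muscle myosin, had 27.6 in the SiO2-3TF-3C spleen, 137 in liver and 27.0 in the SiO2 spleen. Cela1, an elastase, had 160 in the SiO2-3TF-3C spleen, 30.9 in liver and 97.4 in the SiO2 spleen, whereas Ctrb1, a chymotrypsinogen, had 154, 361 and 144 in that order. Of the 6 acinar genes 4 were well above background on all 3 arrays, and 1, Cpa1, on none. The 4 fat genes summed to 58.7, 54.1 and 64.8 in that order of arrays, and Podxl had 38.2, 24.8 and 25.1. Of the lymph node venule list, Fut7 had differences from the SiO2 spleen of -0.10 in the SiO2-3TF-3C spleen and -0.93 in liver, and Chst4 of -0.28 ± 0.41 and 1.30 ± 0.35. Chst4 was dim, at 10.2 in the SiO2-3TF-3C spleen, 23.1 in liver and 13.7 in the SiO2 spleen.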
